A study of Drosophila melanogaster with 6 samples.

Results

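The larval glue and fat body protein genes are 10 genes of the fruit fly *Drosophila melanogaster* that other larval tissues express strongly and that are not native to the eye imaginal disc. They were chosen by symbol from the 17433 genes of the count table. The 4 glue genes were *Sgs3*, *Sgs5*, *Sgs7* and *Sgs8*. The 6 others were the serum protein genes *Lsp1alpha*, *Lsp1beta*, *Lsp1gamma* and *Lsp2* and the fat body protein genes *Fbp1* and *Fbp2*.

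The study sequenced total RNA of nuclei from the eye discs of larvae late in the third instar, to learn how a misfolded protein in the endoplasmic reticulum changes transcription in this tissue. The 3 *GMR > Rh1G69D* samples carried GMR-GAL4, uas-Rh-1G69D and uas-EGFP::Msp300-KASH, and the 3 control samples carried GMR-GAL4 and uas-EGFP::Msp300-KASH without the mutant rhodopsin. In both genotypes the driver acts in the cells behind the morphogenetic furrow, and the tag on the nuclear envelope allowed nuclei to be pulled down with an antibody against EGFP after the dissected tissue had been broken up. Each sample was a pool of eye-antennal discs from many larvae, so the p-values measure the spread between pools. In bulk samples of this kind, fewer cells of a type and less RNA per cell cannot be told apart.

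Glue proteins are made in the salivary glands near the end of larval life, are secreted into the gland's lumen, and fix the puparium to its substrate. The larval serum proteins are hexamerins, storage proteins that the fat body makes and secretes into the hemolymph and takes up again before metamorphosis. Both programmes depend on the steroid hormone ecdysone and are used as markers of their tissues and of late larval age.

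All 10 genes were detected, and their level differed widely between libraries of the same genotype. Summed over the 4 glue genes, the libraries held 35, 112 and 1975 counts in *GMR > Rh1G69D* replicates 1, 2 and 3, and 5743, 685 and 28028 counts in control replicates 1, 2 and 3. Summed over the 6 serum and fat body protein genes, they held 1573, 270 and 1030 counts in *GMR > Rh1G69D* replicates 1, 2 and 3, and 660, 1346 and 25070 counts in control replicates 1, 2 and 3. Control replicate 3 was highest in both groups of genes, and the genotypes overlapped in both.

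The whole table sets the depth behind these values. Totals ranged from 21773452 to 25320418 counts in *GMR > Rh1G69D* libraries and from 22169330 to 30884519 in control libraries, and 1 CPM (a count scaled to the normalized size of its library) stood for between 19.6 and 33.1 counts. Log2 CPM was correlated between libraries across the tested genes, which are not independent replicates. Control replicate 3 had a higher correlation with *GMR > Rh1G69D* replicate 3 (Pearson r = 0.956) than with control replicates 1 (0.944) and 2 (0.941). Control replicates 1 and 2 had r = 0.942 with each other, so by r alone control replicate 3 was about as close to them. With the 3 *GMR > Rh1G69D* libraries, control replicate 3 had r between 0.933 and 0.956. Control replicates 1 and 2 had r between 0.892 and 0.909 with them. The squared count difference per gene, relative to sampling noise, was 113 between control replicates 1 and 2. For control replicate 3 it was 291 and 330 against control replicates 1 and 2. Against *GMR > Rh1G69D* replicate 3 it was 99.6. Ribosomal RNA genes took 14.0% to 18.6% of the counts in *GMR > Rh1G69D* libraries and 7.70% to 20.5% in control libraries, with the highest share in control replicate 3. Because control replicate 3 was also highest in both groups of genes, counts of called genes are given with and without this library. The part of its ribosomal share in these counts was not tested.

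Of the glue genes, *Sgs8*, *Sgs7* and *Sgs3* lie beside each other on chromosome arm 3L (dm6 coordinates). *Sgs8* spans 11508967 to 11509394 on the minus strand, *Sgs7* spans 11509861 to 11510247 on the plus strand, and *Sgs3* spans 11512221 to 11513402 on the plus strand. The gap is 466 bases from *Sgs8* to *Sgs7* and 1973 bases from *Sgs7* to *Sgs3*, and no exon of the 3 genes overlaps that of another annotated gene. *Sgs5* lies on chromosome arm 3R at 17595362 to 17596112.

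*Sgs3* encodes a large glue protein rich in repeats. It had 4, 41 and 629 counts in *GMR > Rh1G69D* replicates 1, 2 and 3, against 2545, 173 and 10396 counts in control replicates 1, 2 and 3. The average was 9.65 ± 15.0 CPM in *GMR > Rh1G69D* libraries and 163 ± 177 CPM in control libraries (SD, n = 3 each). In both genotypes the SD was larger than the mean, and *GMR > Rh1G69D* replicate 3 lay above control replicate 2. The log2 fold change was -4.08 ± 1.38 (SE) and did not pass the test (adjusted p = 0.106, edgeR).

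*Sgs5*, a smaller glue protein gene on another chromosome arm, had the same order of libraries. It had 2, 33 and 346 counts in *GMR > Rh1G69D* replicates 1, 2 and 3, against 1491, 170 and 5717 counts in control replicates 1, 2 and 3. Its log2 fold change was -4.08 ± 1.27 (SE, adjusted p = 0.0852, edgeR). *Sgs5* is not a neighbour of the other glue genes here, so the shared order of libraries was not limited to 1 locus.

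*Sgs7* and *Sgs8* encode short, related glue proteins. *Sgs7* had 11, 16 and 846 counts in *GMR > Rh1G69D* replicates 1, 2 and 3, against 1427, 257 and 9296 counts in control replicates 1, 2 and 3. *Sgs8* had 18, 22 and 154 counts in *GMR > Rh1G69D* replicates 1, 2 and 3, against 280, 85 and 2619 counts in control replicates 1, 2 and 3. For both genes *GMR > Rh1G69D* replicate 3 was again above control replicate 2, and control replicates 1 and 3 were the highest of the 6 libraries. The log2 fold change was -3.41 ± 1.37 for *Sgs7* (SE, adjusted p = 0.160, edgeR) and -3.69 ± 1.08 for *Sgs8* (SE, adjusted p = 0.0701), the lowest adjusted p of the 10 genes.

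Per length, in the authors' FPKM, *Sgs7* had the highest median of the 10 genes over the 6 libraries (70.2 FPKM), ahead of *Sgs5* (16.1), *Sgs3* (14.8) and *Sgs8* (13.2). The order differed between libraries. In *GMR > Rh1G69D* replicate 1, *Fbp1* (10.2 FPKM), *Lsp1beta* (4.11) and *Sgs8* (1.98) were among the genes above *Sgs7* (1.35), and in *GMR > Rh1G69D* replicate 2, *Sgs8* (2.81) and *Sgs5* (2.38) were above it (2.29). In the order of FPKM over all 17433 genes, *Sgs7* stood at 9890, 9309 and 415 in *GMR > Rh1G69D* replicates 1, 2 and 3, and at 166, 2667 and 35 in control replicates 1, 2 and 3. A salivary gland transcript was thus among the most abundant RNAs of some eye disc libraries and far down the order in others of the same genotype.

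The ratios between glue genes were steadier than their levels where counts were high. *Sgs5* had 0.550 of the *Sgs3* counts in *GMR > Rh1G69D* replicate 3, against 0.586 in control replicate 1 and 0.550 in control replicate 3. *Sgs8* had 0.245 of the *Sgs3* counts in *GMR > Rh1G69D* replicate 3, against 0.110 in control replicate 1 and 0.252 in control replicate 3. *Sgs7* had 1.34 times the *Sgs3* counts in *GMR > Rh1G69D* replicate 3, against 0.561 in control replicate 1 and 0.894 in control replicate 3. The 3 libraries with the most glue RNA thus had nearly 1 proportion of *Sgs5* to *Sgs3*, while *Sgs7* and *Sgs8* were lower against *Sgs3* in control replicate 1. Control replicate 2, with 173 *Sgs3* counts, had other ratios to *Sgs3*: 0.983 for *Sgs5*, 0.491 for *Sgs8* and 1.49 for *Sgs7*. *GMR > Rh1G69D* replicate 2, with 41 *Sgs3* counts, had 0.805, 0.537 and 0.390. In *GMR > Rh1G69D* replicate 1, the 4 *Sgs3* counts are too few for a ratio.

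**Figure D1:**
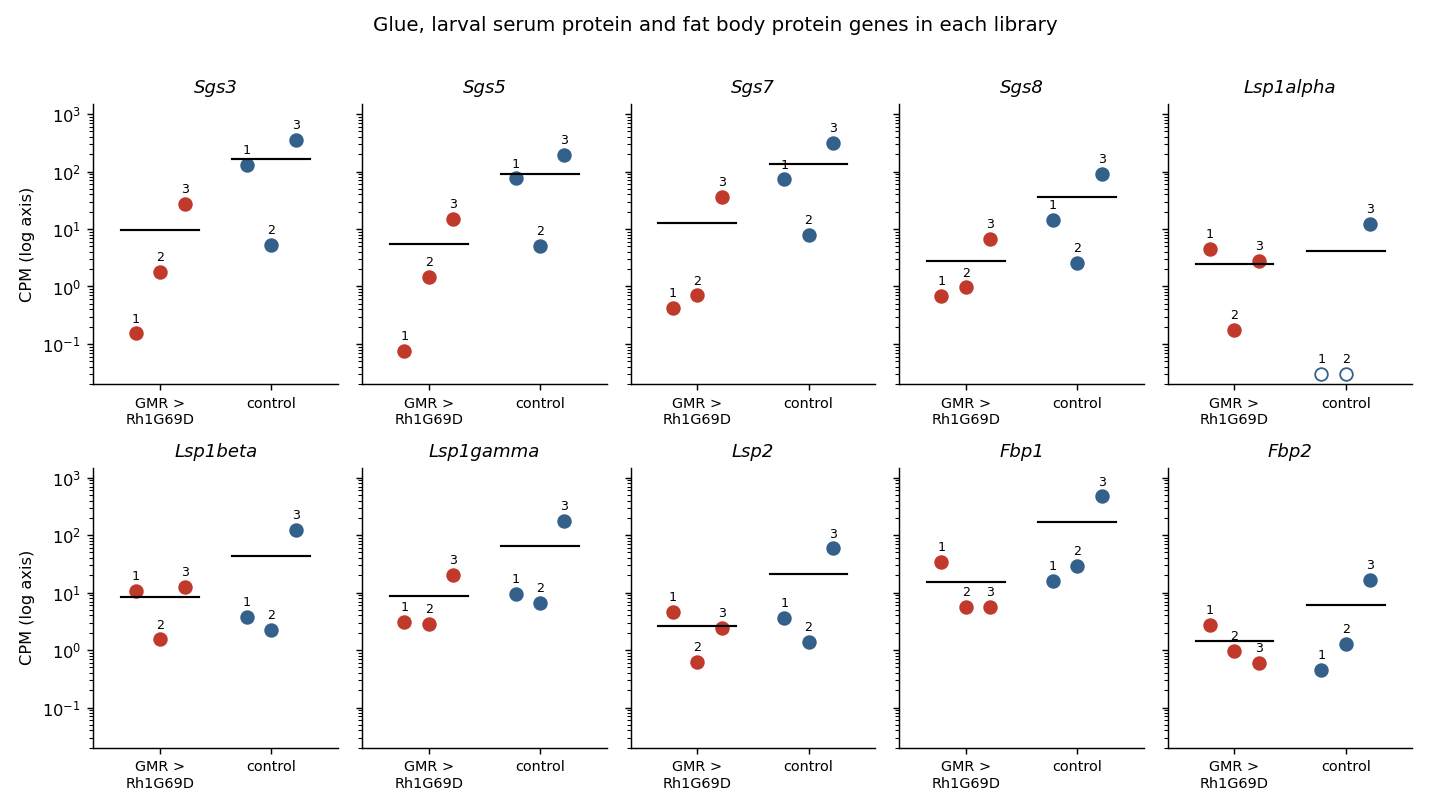
Level of each of the 10 genes in each library, in CPM on a log axis, with *GMR > Rh1G69D* libraries in red, control libraries in blue, replicate numbers beside the points and the mean of each genotype as a black line (open circles mark 0 counts and are drawn below the scale of measured values). The genotypes overlap in every panel, and control replicate 3 is the highest point in all 10.

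The 6 serum and fat body protein genes had a different order of libraries. Control replicate 3 was the highest for each, but the second highest was always a *GMR > Rh1G69D* library: replicate 1 for *Lsp1alpha*, *Lsp2*, *Fbp1* and *Fbp2*, and replicate 3 for *Lsp1beta* and *Lsp1gamma*. *GMR > Rh1G69D* replicate 1, the lowest library for all 4 glue genes, was thus second for 4 of the 6.

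*Lsp1alpha*, *Lsp1beta* and *Lsp1gamma* encode the subunits of larval serum protein 1 and lie on 3 chromosome arms (X, 12490291 to 12492982, 2L, 898500 to 901316, and 3L, 66430 to 68995). *Lsp1alpha* had 119, 4 and 64 counts in *GMR > Rh1G69D* replicates 1, 2 and 3, against 0, 0 and 359 counts in control replicates 1, 2 and 3. A count of 0 allows up to 0.153 CPM in control replicate 1 and 0.0907 CPM in control replicate 2, by counting error only. *Lsp1alpha* was the only one of the 10 genes with libraries at 0, and both belonged to the control. Its log2 fold change was -0.72 ± 1.55 (SE, adjusted p = 0.808, edgeR), with a 95% confidence interval that reached from -4.08 to 2.64.

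*Lsp1beta* had 286, 35 and 288 counts in *GMR > Rh1G69D* replicates 1, 2 and 3, against 75, 74 and 3553 counts in control replicates 1, 2 and 3. *Lsp1gamma* had 81, 65 and 474 counts in *GMR > Rh1G69D* replicates 1, 2 and 3, against 186, 219 and 5179 counts in control replicates 1, 2 and 3. The subunit genes did not keep a fixed ratio. Per length, *Lsp1beta* was above *Lsp1gamma* in *GMR > Rh1G69D* replicate 1 (4.11 and 1.28 FPKM) and below it in each of the other 5 libraries. The log2 fold change was -2.36 ± 1.15 for *Lsp1beta* (SE, adjusted p = 0.233, edgeR) and -2.88 ± 1.08 for *Lsp1gamma* (SE, adjusted p = 0.137).

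*Lsp2* encodes the second hexamerin of the larval hemolymph. It had 123, 14 and 57 counts in *GMR > Rh1G69D* replicates 1, 2 and 3, against 71, 46 and 1715 counts in control replicates 1, 2 and 3. Its log2 fold change was -3.03 ± 1.09 (SE, adjusted p = 0.125, edgeR). *Lsp2* (3L, 12129393 to 12131869) shares exon sequence with the antisense RNA gene *asRNA:CR11538*, and since the strand setting of the counting is not stated, reads of the 2 genes cannot be told apart.

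*Fbp1* encodes the receptor through which the fat body takes up serum proteins, and ecdysone induces it late in larval life. It had 893, 130 and 133 counts in *GMR > Rh1G69D* replicates 1, 2 and 3, against 319, 965 and 13775 counts in control replicates 1, 2 and 3. The average was 15.1 ± 16.3 CPM in *GMR > Rh1G69D* libraries and 172 ± 259 CPM in control libraries (SD, n = 3 each). Control replicate 3 had 13.9 times the CPM of the next library, *GMR > Rh1G69D* replicate 1. The log2 fold change was -3.50 ± 1.08 (SE, adjusted p = 0.0828, edgeR).

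*Fbp2* encodes a fat body protein related to alcohol dehydrogenase. It had 71, 22 and 14 counts in *GMR > Rh1G69D* replicates 1, 2 and 3, against 9, 42 and 489 counts in control replicates 1, 2 and 3. The log2 fold change was -2.11 ± 1.06 (SE, adjusted p = 0.246, edgeR). *Fbp2* (2L, 9426784 to 9427917) shares exon sequence with *CG42847*, so its counts are uncertain to that extent.

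In summed CPM, the 6 serum and fat body protein genes averaged 38.6 ± 24.5 in *GMR > Rh1G69D* libraries and 310 ± 473 in control libraries (SD, n = 3 each). The 4 glue genes averaged 30.3 ± 47.2 in *GMR > Rh1G69D* libraries and 424 ± 482 in control libraries (SD, n = 3 each). Between the highest and the lowest library, the glue sum differed 720-fold and the serum and fat body sum 72.4-fold. Control replicate 3 alone held 70.3% of the glue CPM and 81.8% of the serum and fat body CPM of the 6 libraries.

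The 2 groups of genes did not follow each other. Glue counts divided by serum and fat body counts came to 0.0223, 0.415 and 1.92 in *GMR > Rh1G69D* replicates 1, 2 and 3, and to 8.70, 0.509 and 1.12 in control replicates 1, 2 and 3. The glue sum moved this ratio most: apart from control replicate 3, the serum and fat body sums lay between 11.8 and 59.8 CPM in *GMR > Rh1G69D* libraries and at 33.6 and 40.7 CPM in control replicates 1 and 2. Over the 6 libraries, which are few and include 1 extreme library, log2 CPM correlated with r between 0.946 and 0.997 for the 6 pairs of glue genes and between 0.504 and 0.946 for the 15 pairs of serum and fat body genes. For the 24 pairs of a glue gene with a serum or fat body gene, r ran between 0.00955 and 0.938, with a median of 0.490. The mean log2 CPM of the 2 groups correlated with r = 0.523 over 6 libraries and -0.24 over the 5 without control replicate 3, as a description of these libraries.

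**Figure D2:**
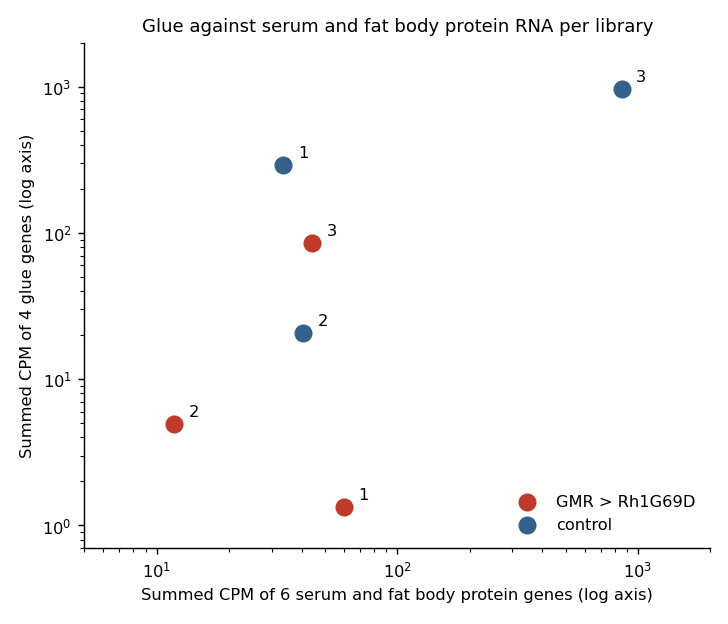
Summed CPM of the 4 glue genes against summed CPM of the 6 serum and fat body protein genes, 1 point per library, both on log axes, with replicate numbers beside the points. *GMR > Rh1G69D* replicate 1 is lowest in glue RNA (1.33 CPM) and second in serum and fat body RNA (59.8 CPM), while control replicate 3 is alone at the upper right with 958 glue CPM and 857 serum and fat body CPM.

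The comparison of the genotypes asked whether these genes changed under the mutant rhodopsin. All 10 passed the filter on low counts, and all 10 had a log2 fold change below 0, with a median of -3.22 (glue genes -3.89, serum and fat body genes -2.62), against 0.04 over the 11818 genes tested. None of the 10 passed an adjusted p under 0.05 in edgeR's test, where 4.96% of all tested genes passed (3.72% as lower in *GMR > Rh1G69D*). With an unadjusted p under 0.05, 7 of the 10 were lower, against 12.8% of all tested genes. DESeq2 called 0 of the 7 genes to which it gave a p, against 11.7% of all genes it tested. In 0 of the 10 genes were the genotypes apart without overlap, which held for 28.2% of tested genes. Control replicate 3 was the highest library for 10 of 10 genes, against 8.39% of tested genes.

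The spread among libraries of a genotype was wide. Among the 3 *GMR > Rh1G69D* libraries, the SD of log2 CPM ran from 1.04 (*Fbp2*, the 90.2 percentile of tested genes) to 3.45 (*Sgs3*, the 99.9 percentile), where the median tested gene had 0.301. Among the 3 control libraries it ran from 2.54 (*Sgs8*) to 4.22 (*Lsp1alpha*), where the median tested gene had 0.423. The lowest of the 10, *Sgs8*, was at the 99.7 percentile of tested genes there.

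Control replicate 3 was the highest library for all 10 genes, so leaving it out moves their log2 fold changes upward by construction. Without it, glue and fat body genes differed in where they came to lie. The 4 glue genes stayed below 0, with a median log2 fold change of -2.24, but 0 of them passed in edgeR's test, and 2 of all 10 genes had an unadjusted p under 0.05. The summed glue CPM was 30.3 ± 47.2 in *GMR > Rh1G69D* libraries (SD, n = 3), against 157 ± 192 in the other 2 control libraries (SD, n = 2). Of the 6 serum and fat body genes, only *Fbp1* stayed below 0 (-0.58 ± 0.67, SE, adjusted p = 0.583, edgeR), and the median was 0.42. Their summed CPM was then 38.6 ± 24.5 in *GMR > Rh1G69D* libraries (SD, n = 3), against 37.1 ± 5.02 in the other 2 control libraries (SD, n = 2), a ratio of 1.04 where all 6 libraries gave 0.124. The 95% confidence interval of the log2 fold change then reached from -1.86 to 1.97 for *Lsp2* and from -1.52 to 1.78 for *Lsp1gamma*.

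In that fit 1 of the 10 genes passed, where 20.5% of all tested genes did. It was *Lsp1alpha*, as higher in *GMR > Rh1G69D* (adjusted p = 0.0186, edgeR), since both remaining control libraries were at 0. Its mean of 2.48 CPM in *GMR > Rh1G69D* libraries was at least 20.4-fold higher than the floor of 3 counts in each of those 2 libraries, although *GMR > Rh1G69D* replicate 2 had 4 counts only. Other left-out libraries moved the count of called genes as well. Without *GMR > Rh1G69D* replicate 3, the one library of that genotype with much glue RNA, all 4 glue genes passed as lower. In that fit 1.47% of all tested genes passed. Without control replicate 2, the control library with the least glue RNA, *Sgs5* and *Sgs8* passed as lower, where 2.19% of all tested genes passed.

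**Figure D3:**
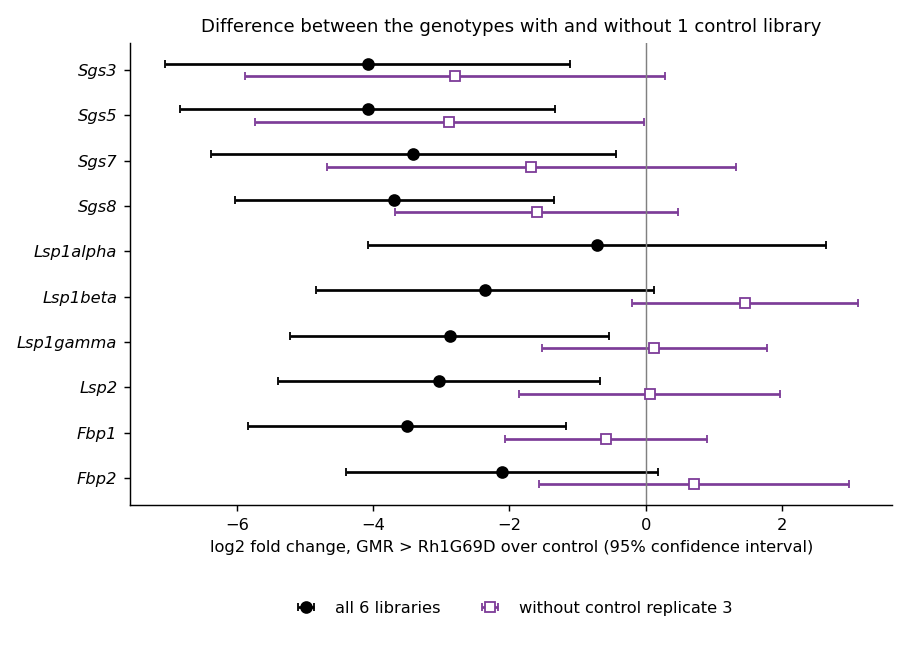
Log2 fold change of each gene, *GMR > Rh1G69D* over control, with its 95% confidence interval from edgeR, for all 6 libraries (filled circles) and without control replicate 3 (open squares, not drawn for *Lsp1alpha*, where both remaining controls were at 0). Glue genes stay left of 0 without control replicate 3, while *Lsp1beta*, *Lsp1gamma*, *Lsp2* and *Fbp2* move to values above 0.

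Glue genes outside the 10 were examined from a list. Of the 8 listed, 7 were in the table and 4 could be tested, with a median log2 fold change of -3.39. *Sgs1*, which encodes another large glue protein, had 0, 11 and 67 counts in *GMR > Rh1G69D* replicates 1, 2 and 3, against 1052, 110 and 1414 counts in control replicates 1, 2 and 3. Its genotypes did not overlap, as in 28.2% of all tested genes. They lay close, with 2.88 CPM in *GMR > Rh1G69D* replicate 3 and 3.33 CPM in control replicate 2. *Sgs1* fell by 4.98 on the log2 scale (SE 1.13, adjusted p = 0.0246, edgeR), also without control replicate 3 (adjusted p = 0.0247). DESeq2 called 0 genes of this list. *ng3*, another gland gene, had a log2 fold change of 0.69 (adjusted p = 0.505, edgeR) and did not follow the order of libraries of the glue. The genes whose log2 CPM was most like the mean glue profile over the 6 libraries were *Eig71Ee*, a salivary gland gene induced by ecdysone (r = 0.986), *CR44295* (0.983), the metalloprotease gene *sona* (0.983), *Ipp* (0.971) and the glue gene *Sgs4* (0.971). *Sgs4* had 27, 16 and 248 counts in *GMR > Rh1G69D* replicates 1, 2 and 3, against 759, 115 and 3077 counts in control replicates 1, 2 and 3. *Eig71Ee* and *Sgs4* spanned 8.42 and 7.08 log2 units over the libraries, while *CR44295*, *sona* and *Ipp* spanned 1.12 to 1.64.

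Salivary gland regulators and enzymes had another order of libraries. Of the 5 listed, *CrebA*, a regulator of secretory capacity that is used in many secretory cells, was the only one that edgeR called, also without control replicate 3, and it fell by 1.13 on the log2 scale (adjusted p = 0.0157, edgeR). DESeq2 called 2 of the 5. Of all tested genes, edgeR called 4.96% and DESeq2 11.7%. *fkh*, a gland determinant that other tissues also use, averaged 43.2 ± 12.1 CPM in *GMR > Rh1G69D* libraries and 42.3 ± 5.77 CPM in control libraries (SD, n = 3 each). *sage*, a gland factor that acts with *fkh*, averaged 7.57 ± 1.06 CPM in *GMR > Rh1G69D* libraries and 5.57 ± 1.52 CPM in control libraries (SD, n = 3 each). Neither passed the test (adjusted p = 0.953 for *fkh* and 0.526 for *sage*). *PH4alphaSG2*, a prolyl hydroxylase gene of the gland, had 0.646, 1.66 and 2.53 CPM in *GMR > Rh1G69D* replicates 1, 2 and 3, against 3.41, 10.6 and 3.25 CPM in control replicates 1, 2 and 3. It was highest in control replicate 2, the control library with the least glue RNA. *ng3*, *fkh*, *sage* and *PH4alphaSG2* are named after their values were seen.

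Fat body genes outside the 10 differed among themselves. The 12 of 14 listed genes that were in the table summed to between 750 and 798 CPM in *GMR > Rh1G69D* libraries and between 853 and 1002 CPM in control libraries, a 1.34-fold range over the 6 libraries, in a sum carried mostly by *apolpp*, *LpR2* and *Cp1*. Control replicate 3 was the highest library for 5 of the 12. Of the 9 tested, *Tsf1*, the gene of the iron carrier transferrin, was called higher (log2 fold change 1.39, adjusted p = 0.0184, edgeR) and 0 were called lower, while DESeq2 called 3 of the list. Without control replicate 3, 2 of 10 were called higher (*Tsf1* and *Cp1*) and 2 lower (*LpR2*, a lipophorin receptor gene, and *Adh*). That fit called 20.5% of all tested genes, against 4.96% with all 6 libraries, where DESeq2 called 11.7%. The serum and fat body profile was matched most closely by *Obp99b*, an odorant binding protein gene on the fat body list (r = 0.985), followed by *CG13928* (0.977), *bug* (0.965), *mip130* (0.961) and *CG17598* (0.940). *Obp99b* had 73, 17 and 53 counts in *GMR > Rh1G69D* replicates 1, 2 and 3, against 30, 52 and 2109 counts in control replicates 1, 2 and 3. It spanned 6.45 log2 units, whereas the other 4 spanned between 0.30 and 0.66. The enzyme gene *Pepck*, also on the fat body list, had 0 counts in all 6 libraries. *Adh* averaged 0.242 CPM in *GMR > Rh1G69D* libraries and 1.67 CPM in control libraries. Of the 5 fat body regulators, *svp*, a nuclear receptor gene that photoreceptors also express, fell by 1.05 (adjusted p = 0.0257, edgeR). Without control replicate 3 *svp* was again lower, and *srp*, a GATA factor gene of fat body and blood cells, was called higher.

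Markers of other tissues had their own orders of libraries. Hemocyte markers summed to between 549 and 750 CPM in *GMR > Rh1G69D* libraries and between 240 and 401 CPM in control libraries, and 3 of the 9 tested rose: *Hml*, a clotting protein gene (log2 fold change 1.27), and the collagen IV genes *vkg* (1.39) and *Col4a1* (1.08). When control replicate 3 was left out, 6 of the 9 were called higher, with *Pxn*, *PPO1* and *PPO2* added, and DESeq2 called 4 with all 6 libraries. Of all tested genes, edgeR called 4.96% with all 6 libraries and 20.5% without control replicate 3. DESeq2 called 11.7% of the genes it tested. Larval muscle markers summed to between 973 and 1798 CPM in *GMR > Rh1G69D* libraries and between 1095 and 1755 CPM in control libraries. Of the 9 tested, 4 rose (*Mhc*, *Mlc2*, *wupA* and *Act57B*, all of the contractile apparatus) and *sls*, the gene of a giant muscle protein, fell. With control replicate 3 left out, 7 were called higher, with *Act87E*, *Tm2* and *up* added, and *sls* again lower, and DESeq2 called 6 with all 6 libraries. For 0 of the hemocyte or muscle markers was control replicate 3 the highest library. Gut enzyme genes summed to between 0.456 and 1.03 CPM in *GMR > Rh1G69D* libraries, against 1.07, 142 and 0.854 CPM in control replicates 1, 2 and 3, most of it from the protease gene *Jon65Aiv* (130 CPM in control replicate 2) and the trypsin gene *alphaTry* (7.14 CPM there). The part of these tissues in the glue and fat body results was not tested.

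The lists for trachea and cuticle (9 tested), ring gland (5), glia (4) and antennal disc (4) held 0 genes called by edgeR or DESeq2, with 4, 0, 0 and 1 genes at an unadjusted p under 0.05, and the 1 gut enzyme gene tested was not called. Without control replicate 3, the antennal disc genes *hth* (adjusted p = 0.0263, edgeR) and *ss* (0.0334) were called lower, and the other 4 of these lists again held 0 called genes. That fit called 20.5% of all tested genes, against 4.96% with all 6 libraries. Their most abundant genes were *verm* and *serp* for trachea and cuticle, *spok* and *sad* for ring gland, *nrv2* and *Gs2* for glia and *hth* and *Dll* for antennal disc. *hth*, a homeobox gene of antenna and eye margin, averaged 1088 ± 170 CPM in *GMR > Rh1G69D* libraries and 1909 ± 1052 CPM in control libraries (SD, n = 3 each).

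**Figure D4:**
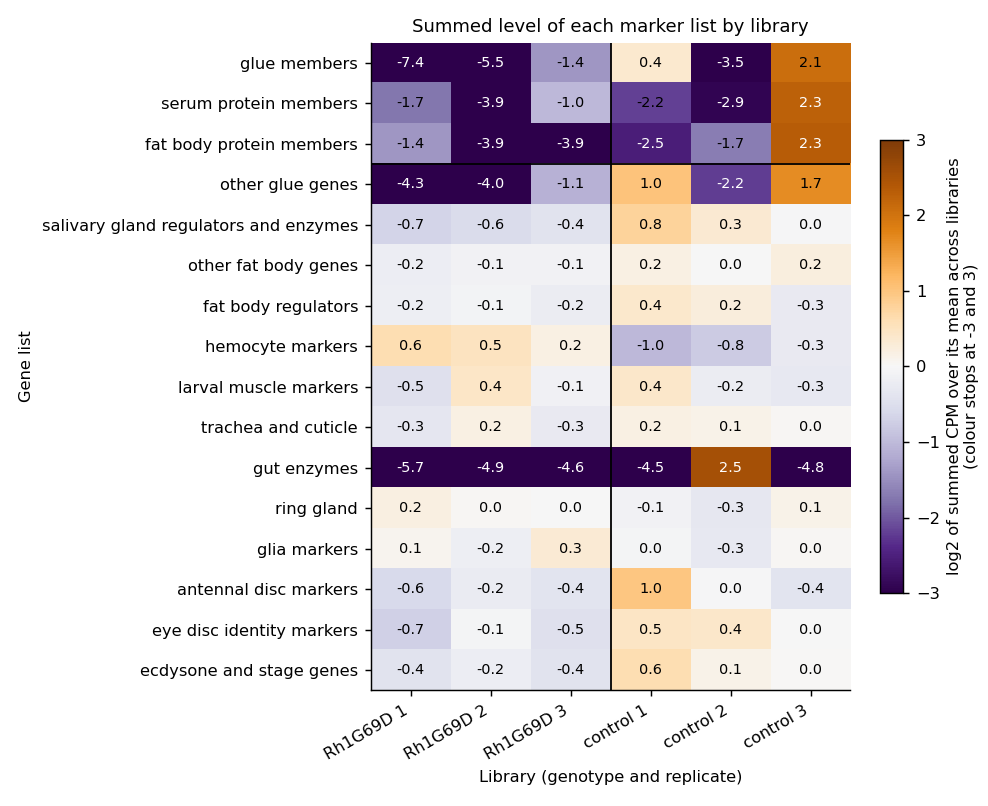
Summed CPM of each gene list in each library as the log2 of its ratio to the mean over the 6 libraries, with the 3 lists of the 10 genes above the horizontal line, *GMR > Rh1G69D* libraries left of the vertical line and control libraries right of it. The list of other glue genes differs between libraries by 64.5-fold, the glue genes of the 10 by 720-fold, the 2 serum and fat body lists by 71.4-fold and 77.2-fold, the gut enzymes mainly in control replicate 2, and each of the other lists by 3.12-fold or less.

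The tissue label was checked with eye disc genes. All 11 eye disc markers were detected and summed to between 4478 and 7084 CPM in *GMR > Rh1G69D* libraries, against 7285 to 10131 CPM in control libraries. Most of this sum came from *pros*, at 2919 to 5317 CPM in *GMR > Rh1G69D* libraries and 4508 to 5974 CPM in control libraries. Of the 11, 7 fell (*chp*, *sev*, *lz*, *so*, *gl*, *eya* and *ro*) and 0 rose, where 3.72% of all tested genes fell. Without control replicate 3 *elav* was lower as well, in a fit that called 20.5% of all tested genes. The 10 glue and fat body genes together took 0.00635%, 0.00175% and 0.0130% of the counts in *GMR > Rh1G69D* replicates 1, 2 and 3, against 0.0289%, 0.00663% and 0.172% in control replicates 1, 2 and 3.

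Stage genes were set beside the glue because glue genes are switched on and off by ecdysone. Of the 20 listed ecdysone and stage genes in the table, 17 could be tested, and 3 fell. *Hr3* fell by 1.83 (adjusted p = 0.00962, edgeR), *Hr4* by 1.11 (0.0114) and *Eip63E* by 0.76 (0.0490). *Hr3* and *Hr4* encode nuclear receptors of the ecdysone response, and *Eip63E* encodes a cyclin-dependent kinase. These 3 were again called lower without control replicate 3, where 7 were called lower (*Eip75B*, *Eip93F*, *Hr39* and *ImpE1* besides these). *ImpL2* was called higher there. In that fit 20.5% of all tested genes passed, against 4.96% with all 6 libraries. DESeq2 called 6 of the stage genes with all 6 libraries. The late salivary gland genes *Eig71Ea* and *Eig71Eb* had 0 counts in all 3 *GMR > Rh1G69D* libraries. In control replicates 1, 2 and 3, *Eig71Ea* had 0, 2 and 26 counts and *Eig71Eb* had 5, 1 and 0 counts, so nearly all counts of *Eig71Ea* were in control replicate 3. *Eig71Ed* had 0 counts in all 6 libraries. In summed CPM the stage genes lay between 8730 and 10160 in *GMR > Rh1G69D* libraries, against 17904, 12710 and 11742 in control replicates 1, 2 and 3. Much of this sum came from *br*, an early ecdysone response gene, at between 3920 and 5445 CPM in *GMR > Rh1G69D* libraries and 9908, 6015 and 5633 CPM in control replicates 1, 2 and 3. Other listed genes had another order: *ImpE2* had between 797 and 1002 CPM in *GMR > Rh1G69D* libraries and 1063, 1164 and 1541 CPM in control replicates 1, 2 and 3, with the highest value in control replicate 3. The part of larval age in the differences between libraries was not tested.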

How the data were processed

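RNA was measured in 3 *GMR > Rh1G69D* and 3 control samples, grouped by the genotype and replicate in their titles. The authors mapped reads to dm6 (STAR 2.6.1d) and deposited raw counts per gene from featureCounts (Subread 1.6.3). They also deposited normalized counts, a signal equal to the counts divided by 1 size factor per sample, and FPKM, and these deposited FPKM values are used only to compare genes. The annotation release and strand setting are not given in the sources used here. Libraries held 21773452 to 30884519 counts, and floors of 3 counts cover counting error only.

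The main test was edgeR 4.0.16 (R 4.3.3) on the raw counts, with filterByExpr, TMM and the quasi-likelihood F test by genotype. P-values were adjusted by Benjamini-Hochberg over the 11818 genes tested, and 0.05 was the threshold. CPM use the TMM library size. Standard errors were derived from the F statistic, and intervals are at 95%. Log2 CPM have a prior count of 2. The pipeline was tested on simulated data. An exact permutation test was not used, because 3 samples against 3 allow no two-sided p below 0.1. No 2 libraries agreed within sampling noise.

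Coordinates are from the Ensembl annotation of the same assembly. The 10 genes and the 13 other marker lists were chosen with earlier results of these data known. All 10 genes are named. Of each list, called genes are named or, if none, the 2 with the highest mean CPM. Besides those said above to be named after their values were seen, other genes are named outside this rule, with their values known. These are *br*, *ImpE2*, *Eig71Ea*, *Eig71Eb*, *Eig71Ed*, *Pepck*, *apolpp*, *pros*, *betaTry*, *Amy-d*, *Amy-p*, *Jon99Ci* and *Mal-A1*. For each profile, the 5 most similar tested genes averaging a log2 CPM of 1 or more are named. *EcR* and *Eip74EF* are on both the fat body regulator and the stage list. Alternatives were DESeq2 1.42.0, RLE or total count normalization, no filter, 10 counts or more in all samples, a replicate block, robust dispersion, limma 3.58.1 on log2 FPKM (pseudocounts 1 and 0.1) and log2 normalized counts (pseudocount 1), and leaving out each library. The counts of the marker lists without control replicate 3 were added after seeing the data. Figures were drawn with matplotlib 3.10.9.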

Additional observations from a re-analysis of the deposited data

How the results depend on the processing

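Of the 156 log2 fold changes of the 10 genes under other settings, 130 kept their direction and were not called, and 9 turned above 0. The other 17 kept their direction and passed the threshold, which 0 of the 10 did in the reported fit. *Lsp1alpha* turned to 2.17 under the replicate block, 0.059 and 1.01 in limma on FPKM (pseudocounts 1 and 0.1), and 2.42 in limma on normalized counts. With each library left out in turn, values ran from -1.48 to 8.96 for *Lsp1alpha* (the highest a fitted value that is no bound), -2.92 to 1.46 for *Lsp1beta*, -4.43 to 0.13 for *Lsp1gamma*, -3.78 to 0.058 for *Lsp2* and -2.96 to 0.71 for *Fbp2*, each above 0 only without control replicate 3. Called among the 10 were 1 with the total count only (*Sgs8*), 3 with no filter (*Sgs5*, *Sgs8* and *Fbp1*), 2 with at least 10 counts in every sample (*Sgs8* and *Fbp1*, of the 6 genes left in that fit), and 0 to 4 when a library was left out. Of all tested genes, 5.33% were called with the total count only, 4.71% with no filter and 7.44% with at least 10 counts in every sample. The share was 1.47% to 20.5% when a library was left out. Of all genes, 1464 were called with DESeq2, 357 with limma on FPKM with a pseudocount of 0.1, and 181 to 2504 when a library was left out. Robust dispersion called 0 of the 10, against 5.73% of all tested genes, and 0 of the 10 had an unadjusted p under 0.05 there.

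A replicate block gave 5 calls among the 10 (all 4 glue genes and *Lsp1gamma*) and 734 among all genes (6.21% of those tested). Same-numbered libraries correlated in their deviations from the genotype mean with r = -0.0025, 0.074 and 0.162. The value for replicate 3 was the highest of all pairs between the genotypes, while replicate 1 of each genotype correlated better with another number. The labels give a number only, and whether same-numbered libraries were handled together was not tested.

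The ratio of summed serum and fat body CPM was 0.0861 to 1.04 when a library was left out, and that of glue CPM 0.00736 to 0.194, lowest without *GMR > Rh1G69D* replicate 3. Without control replicate 3, 6 of the 13 marker lists changed their count of called genes by over 1.5 times. The share of all tested genes called was 20.5% in that fit, against 4.96% with all 6 libraries. The cause of these changes was not tested. DESeq2 gave no p to *Lsp1beta*, *Lsp1gamma* and *Fbp1*.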

Other observations

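Some genes had nearly all their counts in 1 library. Of the 22 genes with at least 100 counts in all and at least 90% of their CPM in 1 library, 1, 1 and 0 had it in *GMR > Rh1G69D* replicates 1, 2 and 3, against 1, 18 and 1 in control replicates 1, 2 and 3. These genes were chosen by that measure, so their order of libraries is a description with no test, and no theme was tested for the 18. *Jon65Aiii*, a gut serine protease gene, had 9, 13 and 16 counts in *GMR > Rh1G69D* replicates 1, 2 and 3, against 7, 6223 and 5 counts in control replicates 1, 2 and 3. *Jon65Aiv*, its neighbour in name and family, had 0, 0 and 1 counts in *GMR > Rh1G69D* replicates 1, 2 and 3, against 0, 4297 and 4 counts in control replicates 1, 2 and 3. The trypsin gene *alphaTry* had 0 counts in all 3 *GMR > Rh1G69D* libraries, against 0, 236 and 1 counts in control replicates 1, 2 and 3, and the lysozyme gene *LysD* had 4, 0 and 0 counts in *GMR > Rh1G69D* replicates 1, 2 and 3, against 2, 515 and 7 counts in control replicates 1, 2 and 3. On the list of 7 gut enzyme genes, *Jon65Aiv*, *alphaTry* and *betaTry* were nearly confined to control replicate 2. *Jon99Ci*, *Mal-A1* and *Amy-p* had counts in all 6 libraries, with the most in control replicate 2 (23, 38 and 5 counts). *Amy-d* had 0 counts there and 9 in control replicate 1. Control replicate 2 had 20.7 CPM of glue RNA and 40.7 CPM of serum and fat body RNA.

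The phenoloxidase genes *PPO1* and *PPO2*, which crystal cells of the hemolymph express, averaged 142 ± 56.3 and 83.8 ± 22.8 CPM in *GMR > Rh1G69D* libraries, against 32.2 ± 35.3 and 20.4 ± 22.1 CPM in control libraries (SD, n = 3 each). In control replicates 1, 2 and 3, *PPO1* had 10.9, 12.7 and 73.0 CPM and *PPO2* had 7.74, 7.53 and 45.9 CPM. In *GMR > Rh1G69D* replicate 3 they had 85.5 and 57.6 CPM. Neither passed the test with all 6 libraries (adjusted p = 0.0603 and 0.0625, edgeR). Both passed without control replicate 3, the control library with the most of both (0.000335 and 0.000158). That fit called 20.5% of all tested genes.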
